A study of Canis lupus familiaris with 36 samples.

Results

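The lymphoid chemokines and their receptors are described here across lymphoma samples from 35 dogs. The set held 10 genes, the chemokines CCL19, CCL21, CXCL13 and CXCL12 and the receptors CCR7, CCR4, CXCR3, CXCR4, CXCR5 and CCR6, and each was found on the array by its symbol in the platform annotation. Of the 10 genes, 9 had a probe set, with 13 probe sets in all. CXCR4 had none paired with its symbol here and was not analysed here. The 9 measured genes were CCL19 (NCBI gene 448793), CCL21 (448796), CXCL13 (608156), CXCL12 (449622), CCR7 (491011), CCR4 (403541), CXCR3 (491952), CXCR5 (489378) and CCR6 (484080), out of 15115 genes with a probe set. CCL19, CXCL13, CXCL12 and CXCR3 had 2 probe sets each, and the one with the higher mean stood for the gene. A level is the log2 of the deposited intensity, and a gene was taken as measurable at a log2 level of 4 or more, hereafter the minimum. All 9 genes reached the minimum in at least 4 of the 34 dogs compared and so entered the tests among 7500 genes, with CXCL12 the sparsest at 10 dogs and CXCL13, CCR7 and CXCR3 the fullest at 29 dogs each.

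Every tumour carried a disease state label and a phenotype label. The B phenotype held 17 dogs, 2 with the label BL, 10 with diffuse large B-cell lymphoma (DLBCL) and 5 with marginal zone lymphoma (MZL). The T phenotype also held 17 dogs, 4 with the label LBT, 4 with peripheral T-cell lymphoma (PTCL) and 9 with T-zone lymphoma (TZL), and 1 further dog, labelled NBNT for a tumour of neither lineage, entered no comparison. The labels gave no treatment and no genotype, and the tumour cells had been dissociated mechanically and filtered before total RNA was taken, with no sort, so that each level is that of a cell mixture. MZL and TZL were labelled low grade and the other compared tumours high grade, except for PTCL replicate 4, of intermediate grade, so grade and subtype cannot be told apart. The age at diagnosis, which the labels give without a unit, ran from 2 to 5 in BL, 4 to 14 in DLBCL, 4 to 10 in MZL, 3 to 10 in LBT, 6 to 14 in PTCL and 7 to 11 in TZL. Golden Retrievers numbered 1 in BL, 6 in DLBCL, 4 in MZL, 3 in LBT, 1 in PTCL and 8 in TZL. The other compared dogs were Rottweilers, Labradors, Boxers, Mastiffs, a German Shepherd and a Bichon Frise. Males numbered 1 in BL, 4 in DLBCL, 1 in MZL, 1 in LBT, 2 in PTCL and 6 in TZL, and the others were female. The NBNT dog was a female Golden Retriever with an age at diagnosis of 8 and a tumour labelled low grade. Each dog had its own case number, and 1 DLBCL dog (replicate 6) was averaged from 2 arrays.

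Chemokines are small secreted proteins that guide cells along a gradient through receptors coupled to G proteins, and the genes below are those best known for placing lymphocytes within lymph nodes. In human and mouse, CCL19 and CCL21, made chiefly by the reticular stroma of the T zone, draw naive T cells and mature dendritic cells that carry CCR7. CXCL13, made in the B cell follicle, draws cells with CXCR5, a receptor of B cells and follicular helper T cells. CXCL12 is a broadly made stromal chemokine, among whose receptors is CXCR4. CCR4 binds CCL17 and CCL22 and is known from regulatory, Th2 and skin-homing T cells. CXCR3 binds CXCL9, CXCL10 and CXCL11 and is known from Th1 and cytotoxic T cells. CCR6 binds CCL20 and is carried by B cells and by some memory T cells.

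The labelled lineages were checked against their markers. MS4A1, which encodes CD20, averaged a log2 level of 11.40 ± 0.44 in B and 8.02 ± 2.50 in T, and CD3E, of the T cell receptor complex, averaged 7.15 ± 2.36 in B and 11.75 ± 0.77 in T (SD over 17 dogs in each). PAX5, a B cell transcription factor, was below the minimum in every dog. On 6 arrays the actin 3' control was brighter, at log2 levels of 14.0 to 14.4 against 10.8 to 12.5 on the 30 others, and these were TZL replicates 1, 2 and 7, DLBCL replicates 4 and 9, and PTCL replicate 3. These 6 arrays stand apart. The difference between the 3' and 5' actin controls, a sign of RNA quality, had a median on the log2 scale of 0.98 in BL, 0.92 in DLBCL and -0.59 in MZL, and of -0.76 in LBT, 0.47 in PTCL and -0.995 in TZL. It ran from 0.52 to 1.43 in BL, -0.27 to 4.50 in DLBCL, -1.03 to -0.06 in MZL, -1.43 to 0.63 in LBT, -0.59 to 2.53 in PTCL and -1.70 to 6.76 in TZL. The medians thus differed between DLBCL and MZL, between PTCL and TZL and between LBT and PTCL. Those of BL and DLBCL were also above those of every T label, whereas that of MZL was below that of PTCL. The part of RNA quality in these comparisons and in B against T was not tested. Median intensities lay between 5.57 and 6.13 per array. Precision is limited by how few dogs some labels hold.

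**Figure D1:**
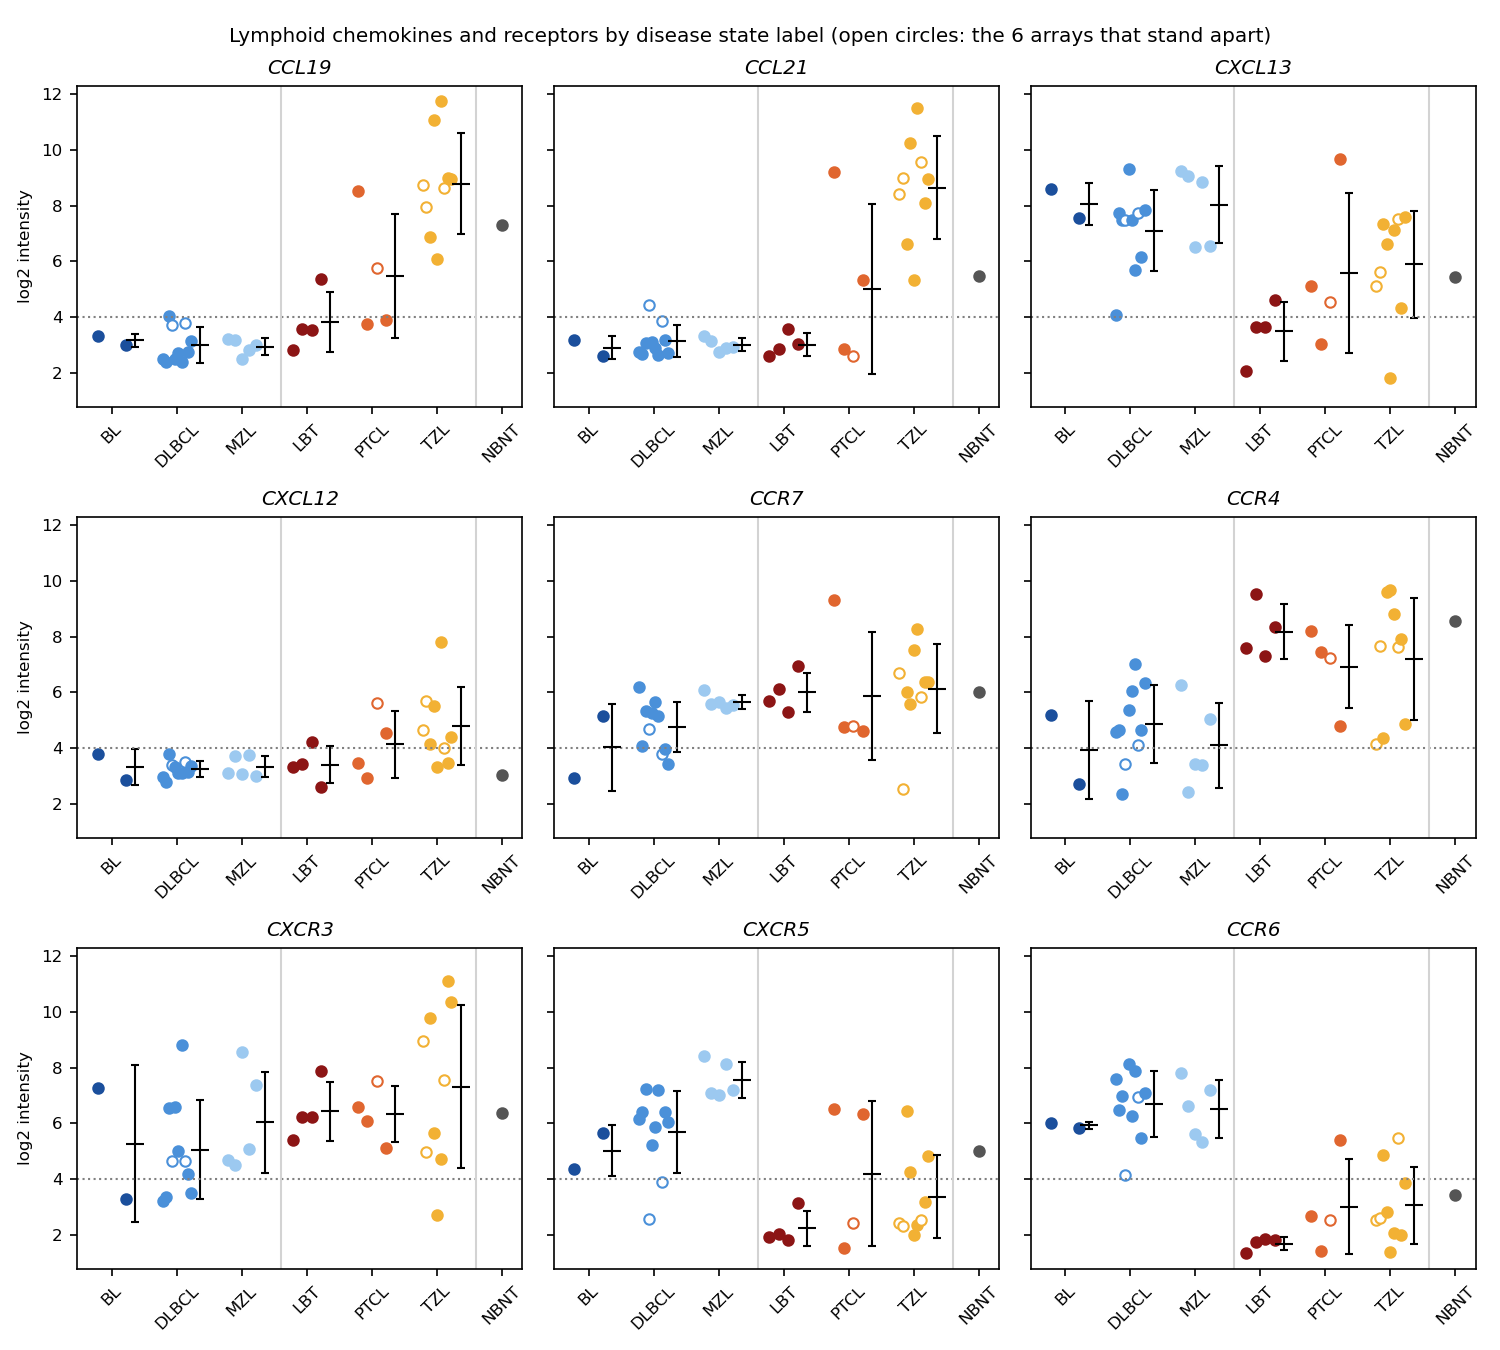
Levels of the 9 measured chemokine and receptor genes by disease state label. Each point is 1 dog, the vertical axis is the log2 intensity, the black bar and whiskers are the mean and SD, the dotted line marks the minimum of 4, and open circles mark the 6 arrays that stand apart. CCL19 and CCL21 lie above the minimum in all 9 TZL dogs, whereas CCR6 lies above it in all 17 B dogs and in 3 T dogs.

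The T zone chemokines CCL19 and CCL21 were high in TZL and at or below the minimum in nearly all B tumours. CCL19 had log2 levels of 3.32 and 2.99 in the BL dogs, 2.39 to 4.04 with a median of 2.73 in the DLBCL dogs, and 3.22, 3.18, 2.49, 2.80 and 3.00 in the MZL dogs. In T tumours CCL19 had log2 levels of 2.80, 3.58, 3.55 and 5.36 in the LBT dogs, 8.52, 3.75, 5.75 and 3.88 in the PTCL dogs, and 6.09 to 11.78 with a median of 8.73 in the TZL dogs. Every TZL dog was thus above every B and LBT dog, while the PTCL dogs overlapped both the B and the TZL dogs. CCL21 had log2 levels of 3.18 and 2.61 in BL, 2.63 to 4.44 with a median of 2.99 in DLBCL, and 3.33, 3.13, 2.75, 2.90 and 2.93 in MZL. In T tumours CCL21 had log2 levels of 2.59, 2.85, 3.57 and 3.02 in LBT, 9.21, 2.86, 2.60 and 5.33 in PTCL, and 5.32 to 11.52 with a median of 8.96 in TZL. Every TZL dog was again above every B and LBT dog, and PTCL replicates 1 and 4 were above the lowest TZL dog. The second CCL19 probe set followed the first across the 34 dogs (Pearson r = 0.99, a description over dogs that share arrays and normalization). Across the 35 dogs, low CCL19 and low CCL21 went together, except that DLBCL replicate 3, LBT replicate 4 and PTCL replicate 3 had CCL19 above the minimum with CCL21 below it, and DLBCL replicate 4 and PTCL replicate 4 the reverse.

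**Figure D2:**
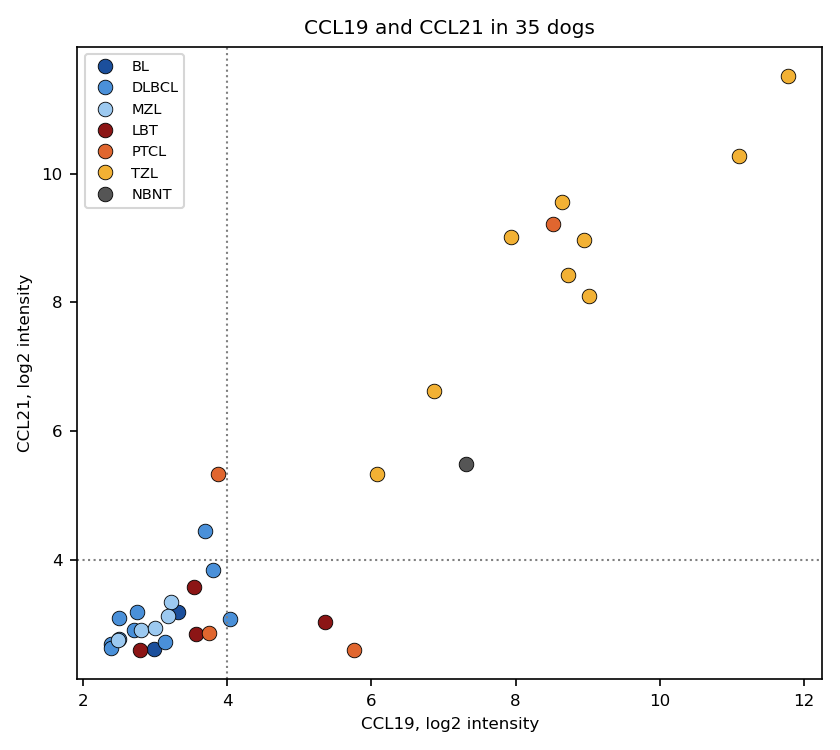
CCL19 (horizontal axis) against CCL21 (vertical axis), both as log2 intensity, with 1 point per dog coloured by disease state label and dotted lines at the minimum of 4. The 9 TZL dogs, PTCL replicate 1 and the NBNT dog lie above the minimum on both axes, and 15 of 17 B dogs lie below it on both.

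The follicle chemokine CXCL13 was measurable in all 17 B dogs. Its log2 levels were 8.61 and 7.54 in BL, 4.06 to 9.32 with a median of 7.49 in DLBCL, and 9.24, 9.06, 6.51, 8.86 and 6.55 in MZL. In T tumours CXCL13 had log2 levels of 2.06, 3.66, 3.64 and 4.62 in LBT, 5.12, 3.02, 4.54 and 9.67 in PTCL, and 1.79 to 7.61 with a median of 6.63 in TZL. The LBT dogs were lowest as a group, DLBCL replicate 1 was the single B dog within their range, and PTCL replicate 4 had the highest level of any dog. CXCL12 was below the minimum in all 17 B dogs, at log2 levels between 2.77 and 3.78. In the T dogs its log2 levels were 3.33, 3.42, 4.23 and 2.60 in LBT, 3.45, 2.92, 5.63 and 4.55 in PTCL, and 3.33 to 7.83 with a median of 4.41 in TZL, so that 10 T dogs reached the minimum. The second CXCL12 probe set was below the minimum in every dog, so results on this gene rest on low signal from 1 probe set.

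Among the receptors, CCR6 and CXCR5 were the ones higher in B tumours. CCR6 had log2 levels of 6.01 and 5.84 in BL, 4.14 to 8.12 with a median of 6.96 in DLBCL, and 7.83, 6.62, 5.63, 5.32 and 7.20 in MZL. In T tumours CCR6 had log2 levels of 1.36, 1.72, 1.84 and 1.81 in LBT, 2.67, 1.40, 2.53 and 5.42 in PTCL, and 1.37 to 5.46 with a median of 2.61 in TZL. The ranges of B and T met only through PTCL replicate 4 and TZL replicates 3 and 7 on the T side and DLBCL replicate 4 and MZL replicate 4 on the B side. CXCR5 had log2 levels of 4.37 and 5.67 in BL, 2.55 to 7.23 with a median of 6.11 in DLBCL, and 8.42, 7.09, 7.02, 8.12 and 7.21 in MZL. In T tumours CXCR5 had log2 levels of 1.93, 2.01, 1.82 and 3.15 in LBT, 6.51, 1.54, 2.41 and 6.33 in PTCL, and 1.97 to 6.44 with a median of 2.53 in TZL. All 5 MZL dogs were above every T dog, whereas DLBCL dogs overlapped the T dogs.

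CCR4, CCR7 and CXCR3 were measurable in most dogs of both lineages, CXCR3 by its brighter probe set alone. The second CXCR3 probe set reached the minimum in 4 of 17 B dogs and 5 of 17 T dogs. CCR4 had log2 levels of 5.18 and 2.69 in BL, 2.34 to 7.03 with a median of 4.64 in DLBCL, and 6.26, 2.41, 3.41, 3.40 and 5.04 in MZL. In T tumours CCR4 had log2 levels of 7.59, 9.52, 7.30 and 8.34 in LBT, 8.20, 7.47, 7.23 and 4.77 in PTCL, and 4.14 to 9.67 with a median of 7.67 in TZL. Every T dog reached the minimum, all 4 LBT dogs were above all B dogs, and TZL replicates 1, 3 and 9 and PTCL replicate 4 lay within the B range. CCR7 had log2 levels of 2.92 and 5.14 in BL, 3.43 to 6.20 with a median of 4.92 in DLBCL, and 6.08, 5.58, 5.67, 5.43 and 5.56 in MZL. In T tumours CCR7 had log2 levels of 5.68, 6.11, 5.29 and 6.94 in LBT, 9.31, 4.74, 4.81 and 4.63 in PTCL, and 2.53 to 8.27 with a median of 6.36 in TZL. The B and T dogs overlapped over most of this range, and the MZL dogs were the tightest group (SD 0.25, n = 5). CXCR3 had log2 levels of 7.27 and 3.27 in BL, 3.22 to 8.83 with a median of 4.65 in DLBCL, and 4.69, 4.52, 8.55, 5.08 and 7.39 in MZL. In T tumours CXCR3 had log2 levels of 5.38, 6.23, 6.21 and 7.90 in LBT, 6.60, 6.09, 7.51 and 5.11 in PTCL, and 2.71 to 11.13 with a median of 7.55 in TZL. TZL held both the lowest and the highest CXCR3 level of all compared dogs (SD 2.94, n = 9).

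Setting B tumours against T tumours asks which of these genes follow the lineage. With limma, 8 of the 9 genes passed an adjusted p of 0.05, 3 of them higher and 5 lower in B, where 46.5% of the 7500 genes passed, 24.2% higher and 22.3% lower. Passing was common on this array, and the median difference of the 9 genes was -1.11 on the log2 scale beside 0.03 over all genes. CCR6 averaged a log2 level of 6.56 ± 1.07 in B and 2.72 ± 1.36 in T, a log2 difference of 3.84 (SE 0.41, limma adjusted p = 2.96e-09). It reached the minimum in only 3 T dogs and so passed the filter through B dogs, and this p-value is not independent of the filter. CXCR5 averaged 6.17 ± 1.51 in B and 3.30 ± 1.72 in T, a log2 difference of 2.87 (SE 0.54, limma adjusted p = 4.62e-05). Its ligand CXCL13 averaged 7.49 ± 1.39 in B and 5.26 ± 2.15 in T, a log2 difference of 2.24 (SE 0.60, limma adjusted p = 0.00263). The follicle chemokine and its receptor were thus both higher in B, as was CCR6. Because a filtered mixture of cells was measured in bulk, fewer cells of a type and less RNA per cell cannot be told apart in this or any later comparison.

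The T zone pair and CCR4 were lower in B. CCL19 averaged a log2 level of 3.00 ± 0.51 in B and 6.84 ± 2.77 in T, a log2 difference of -3.85 (SE 0.66, limma adjusted p = 1.35e-05). CCL21 averaged 3.07 ± 0.47 in B and 6.46 ± 3.12 in T, a log2 difference of -3.39 (SE 0.73, limma adjusted p = 0.000311). CCR4 averaged 4.52 ± 1.43 in B and 7.36 ± 1.80 in T, a log2 difference of -2.84 (SE 0.54, limma adjusted p = 5.87e-05). CXCL12 averaged 3.28 ± 0.33 in B, all below the minimum, and 4.30 ± 1.29 in T, a log2 difference of -1.02 (SE 0.31, limma adjusted p = 0.00811) that bounds the fold at 1.23 or more. CXCL12 passed the filter only through T dogs, and CCL19 and CCL21 each reached the minimum in only 1 B dog. The p-values of these genes are thus not independent of the filter. CCR7 averaged 4.93 ± 0.96 in B and 6.04 ± 1.54 in T, a log2 difference of -1.11 (SE 0.42, limma adjusted p = 0.0317). CXCR3 averaged 5.37 ± 1.82 in B and 6.88 ± 2.22 in T and did not pass (log2 difference -1.51, SE 0.67, limma adjusted p = 0.0638). With every level below the minimum set to it, CCL19 was 7.91-fold, CCL21 7.05-fold and CCR4 5.52-fold lower in B, and CCR6 was 5.06-fold, CXCL13 3.72-fold and CXCR5 3.41-fold higher.

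**Figure D3:**
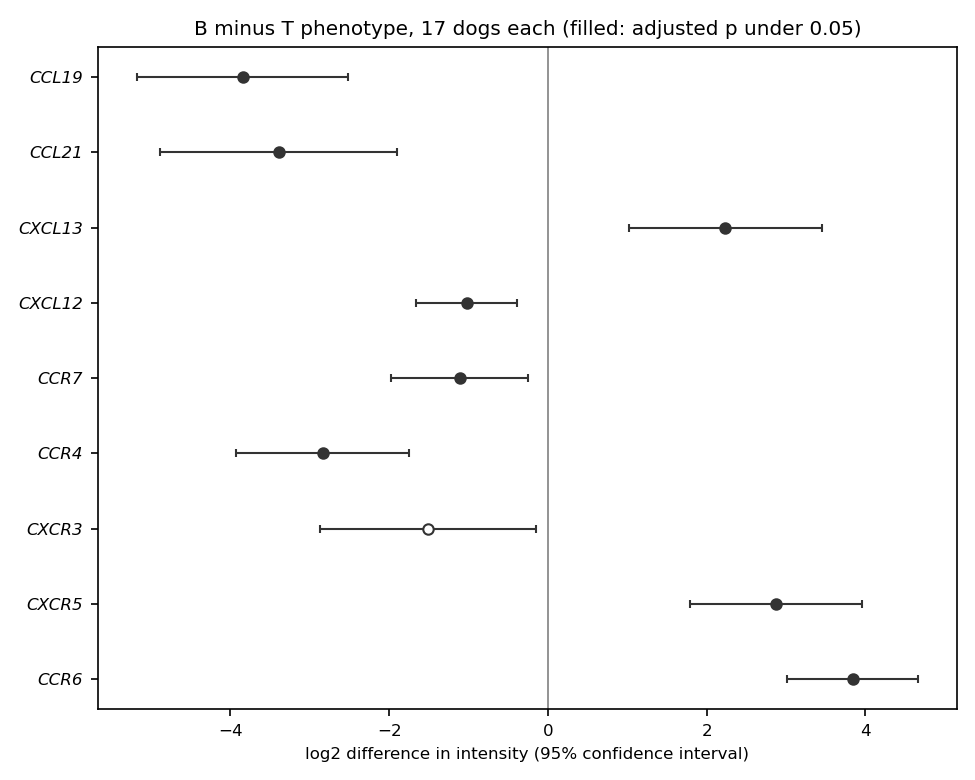
Difference between the B and the T phenotype for each measured gene (17 dogs each). The horizontal axis is the log2 difference in intensity with its 95% confidence interval, positive where B is higher, and filled points passed an adjusted p of 0.05. CCR6 is farthest to the right at 3.84, CCL19 farthest to the left at -3.85, and CXCR3 is the open point.

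These lineage differences did not all hold within a grade. Among the high-grade dogs alone (BL and DLBCL against LBT and 3 of the PTCL dogs), the log2 difference of CCL19 was -1.74 (limma adjusted p = 0.0212), the log2 difference of CCL21 was -0.72 (limma adjusted p = 0.428) and that of CXCL12 was -0.40 (limma adjusted p = 0.334), and 6 genes passed, against 8 in all dogs. Over all genes 33.4% passed among the high-grade dogs, against 46.5% in all dogs. Without the 6 arrays that stand apart, CXCL12 did not pass (limma adjusted p = 0.0552), nor did it with equal weight per subtype (0.0618), and CCR7 lost its call with no filter (limma adjusted p = 0.0530), with equal weight per subtype (0.0529) and without any one of BL replicate 1, DLBCL replicate 11, PTCL replicate 1 or TZL replicates 5 and 6 (up to 0.0556). CXCR3 passed with array weights (limma adjusted p = 0.0145) and without any one of DLBCL replicate 8, MZL replicates 3 and 5 or TZL replicates 5 and 6 (down to 0.0248).

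Markers of B and T cells were set beside these levels dog by dog. The summed intensity of the 5 measured B cell markers ran from 4689 to 9639 in B dogs and from 27.9 to 4127 in T dogs, and that of the 6 T cell markers from 1353 to 6607 in B dogs and from 4805 to 24482 in T dogs. PTCL replicate 4 had both the highest B marker sum (4127) and the lowest T marker sum (4805) of the T dogs, with the highest CXCL13 (9.67), a high CXCR5 (6.33) and a high CCR6 (5.42) as log2 levels. TZL replicate 3 had the highest B marker sum of the TZL dogs (3417), with their highest CXCR5 (6.44) and second highest CCR6 (4.86) as log2 levels. The 3 T dogs next in B marker sum did not share one pattern. LBT replicate 4 (1998) had a log2 level of 1.81 for CCR6 and 3.15 for CXCR5, PTCL replicate 1 (2195) had 2.67 for CCR6 and 6.51 for CXCR5, and TZL replicate 7 (2108) had 5.46 for CCR6, the highest of the T dogs, and 2.53 for CXCR5. Of the follicular dendritic cell markers, CR2, CR1 and FDCSP had no probe set and FCER2 was below the minimum in every dog. The 3 measured ones summed to 74.1 to 1480 in B dogs and 47.1 to 4776 in T dogs. That sum rested on CLU, at the minimum or above in 34 of 34 dogs, and SERPINE2, in 14. The part of B cells, T cells and follicular dendritic cells in the receptor and CXCL13 levels was not tested.

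Within the T lineage, the comparison of LBT and PTCL with TZL asks which genes differ with subtype and grade. In LBT, CCL19, CCL21 and CXCL12 passed as lower than in TZL, where 30.1% of all genes passed, 12.4% as lower and 17.8% as higher. CCL19 averaged a log2 level of 3.82 ± 1.09 in LBT (n = 4) and 8.79 ± 1.81 in TZL (n = 9), a log2 difference of -4.97 (SE 0.76, limma adjusted p = 1.11e-05), which came to 21.9-fold lower with levels below the minimum set to it. CCL21 averaged 3.01 ± 0.42 in LBT and 8.64 ± 1.85 in TZL, a log2 difference of -5.63 (SE 0.84, limma adjusted p = 8.25e-06), and since every LBT dog lay below the minimum it was at least 25.0-fold lower. CXCL12 averaged 3.40 ± 0.67 in LBT and 4.78 ± 1.40 in TZL, a log2 difference of -1.38 (SE 0.53, limma adjusted p = 0.0455) that no longer passed under 7 of 11 other settings, among them without the 6 arrays that stand apart (0.0686). CCL21 and CXCL12 would not have passed the filter without the TZL dogs, so their p-values here are not independent of the filter. CXCL13 averaged 3.49 ± 1.06 in LBT and 5.89 ± 1.93 in TZL and did not pass (log2 difference -2.40, limma adjusted p = 0.0684), but passed without TZL replicate 5 or PTCL replicate 4 (down to 0.0167).

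In PTCL, CCL19 and CCL21 again passed as lower than in TZL, where 13.7% of all genes passed, 6.07% as lower and 7.6% as higher. CCL19 averaged a log2 level of 5.48 ± 2.23 in PTCL (n = 4) and 8.79 ± 1.81 in TZL (n = 9), a log2 difference of -3.32 (SE 0.76, limma adjusted p = 0.00328). CCL21 averaged 5.00 ± 3.06 in PTCL and 8.64 ± 1.85 in TZL, a log2 difference of -3.64 (SE 0.84, limma adjusted p = 0.00349). CCL21 would not have passed the filter without the TZL dogs, so this p-value is not independent of the filter. The 4 PTCL dogs were far apart, with replicate 1 inside the TZL range for both genes. Both calls were lost with array weights (limma adjusted p = 0.0501 for CCL19 and 0.108 for CCL21) and in a fit of these 13 dogs alone (0.0532 and 0.0656), and the CCL21 call was lost without the 6 arrays that stand apart (0.101). CCR7, the receptor of both, did not pass, with a log2 level of 6.01 ± 0.71 in LBT, 5.87 ± 2.29 in PTCL and 6.14 ± 1.59 in TZL. Its log2 difference had a 95% interval of -1.66 to 1.40 for LBT minus TZL and of -1.80 to 1.27 for PTCL minus TZL. No gene of the set passed between LBT and PTCL (0.68% of all genes passed, 934 at an unadjusted p under 0.05).

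**Figure D4:**
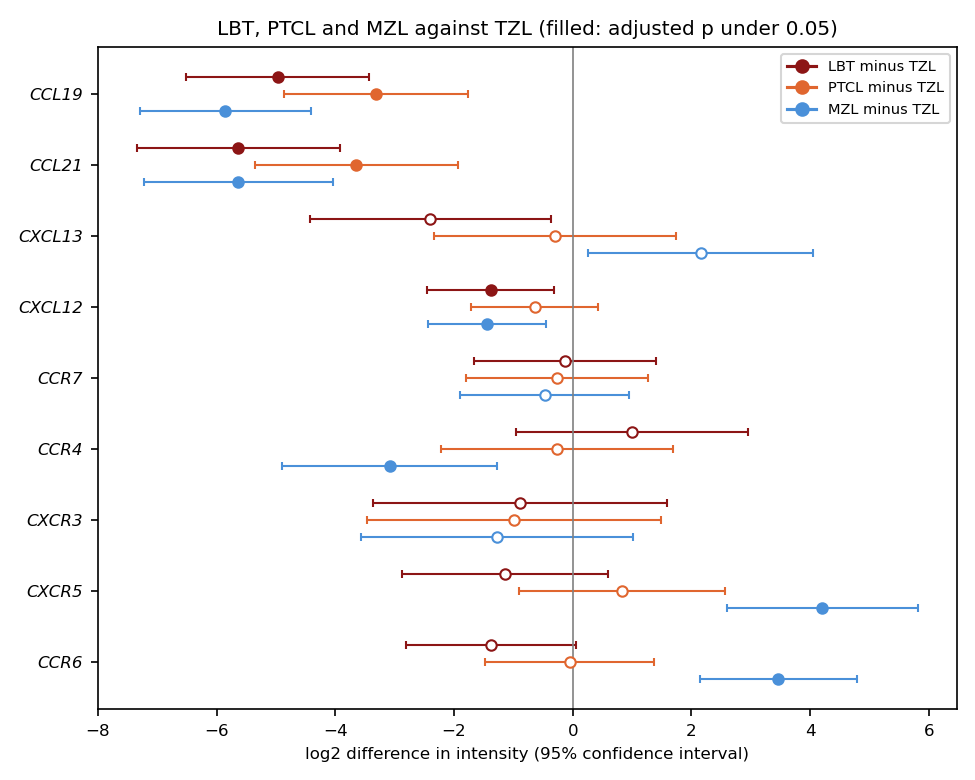
Differences of LBT (4 dogs), PTCL (4 dogs) and MZL (5 dogs) from TZL (9 dogs) for each measured gene. The horizontal axis is the log2 difference in intensity with its 95% confidence interval, negative where TZL is higher, and filled points passed an adjusted p of 0.05. CCL19 and CCL21 are filled and negative in all 3 comparisons, which share the TZL dogs, whereas CCR4, CXCR5 and CCR6 are filled for MZL alone.

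Markers of stroma and vessels, cells known to make CCL19 or CCL21 in mouse, were set beside these levels. Of 8 fibroblast and reticular stroma markers measured, COL6A3, PDGFRB and PDPN were below the minimum in every dog, and the summed intensity ran from 39.5 to 65.7 in BL, 43.3 to 9520 in DLBCL, 47.3 to 3421 in MZL, 42.5 to 97.9 in LBT, 59.3 to 462 in PTCL and 54.1 to 735 in TZL. TZL replicate 6 had the highest stroma sum among the T dogs (735) and the highest CCL19 and CCL21 levels of any dog (11.78 and 11.52 on the log2 scale). DLBCL replicate 11, with the highest stroma sum of all (9520), had CCL19 and CCL21 below the minimum (log2 levels 3.14 and 2.71). Of the 8 endothelium markers, CDH5, VWF, TEK, EMCN, ESAM and LYVE1 were below the minimum in every dog, while PECAM1, which blood cells also carry, reached it in 32 of 34 dogs. The endothelium sum ran from 59.1 to 1198 in B dogs, and from 44.0 to 118 in LBT, 165 to 905 in PTCL and 50.7 to 310 in TZL. KDR, a receptor of vascular growth factor below the minimum in every TZL dog, passed as higher in PTCL than in TZL (log2 difference 2.39, limma adjusted p = 0.00872), but not with low levels set to the minimum (0.0582), with array weights (0.0717), in these 13 dogs alone (0.0679) or without PTCL replicate 2 (0.119). KDR reached the minimum in 4 dogs, all LBT or PTCL, and passed the filter through them, so its p-value is not independent of the filter. Plasma cell markers moved the same way as CCL19 and CCL21 in several comparisons. The 4 measured ones summed to 1183 to 16270 in B dogs, of which MZL 1467 to 2958, and to 1852 to 3285 in LBT, 3973 to 12544 in PTCL and 5061 to 14788 in TZL. All 3 that were tested passed as lower in B than in T, in LBT than in TZL and in MZL than in TZL. Their median log2 differences were -1.40, -2.80 and -2.51, where 22.3%, 12.4% and 12.3% of all genes passed as lower. In PTCL against TZL, where CCL19 and CCL21 passed, 0 of the 3 did (median log2 difference -0.41). B cell markers were also lower in LBT than in TZL, 3 of 4 tested, with a median log2 difference of -3.18. So were 2 of 3 NK and cytotoxic markers (median -2.94), beside the same 12.4% of all genes. The part of stroma, vessels, plasma cells, B cells, and NK and cytotoxic cells in the chemokine levels was not tested. Nor was the part of the mechanical dissociation and filtering in the levels of stroma and vessel markers.

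Among low-grade tumours, MZL against TZL, 6 genes passed, where 27.5% of all genes passed, 15.2% as higher and 12.3% as lower. CCL19 was at least 27.7-fold lower in MZL (log2 difference -5.85, SE 0.70, limma adjusted p = 4.33e-07) and CCL21 at least 25.0-fold lower (log2 difference -5.63, SE 0.78, limma adjusted p = 3.78e-06), since every MZL dog lay below the minimum for both. CCR4 averaged a log2 level of 4.10 ± 1.53 in MZL and 7.19 ± 2.19 in TZL, a log2 difference of -3.08 (SE 0.89, limma adjusted p = 0.00991), 5.77-fold lower with low levels set to the minimum, a call that was lost with gender, breed and age as covariates (0.0550). CXCL12 averaged 3.33 ± 0.37 in MZL and 4.78 ± 1.40 in TZL, a log2 difference of -1.45 (SE 0.49, limma adjusted p = 0.0259) that bounds the fold at 1.72 or more. That call was lost in a fit of these 14 dogs alone (0.0724), with low levels set to the minimum (0.0863), with the 6 arrays as a block (0.0550) and without any one of MZL replicates 1, 3 and 5 (up to 0.0619). CCL21 and CXCL12 would not have passed the filter without the TZL dogs, so their p-values against TZL are not independent of the filter. In the other direction, CXCR5 averaged 7.57 ± 0.65 in MZL and 3.37 ± 1.51 in TZL, a log2 difference of 4.20 (SE 0.79, limma adjusted p = 0.000196), or 9.05-fold higher with levels below the minimum set to it, as they were in 6 of 9 TZL dogs. CCR6 averaged 6.52 ± 1.05 in MZL and 3.06 ± 1.38 in TZL, a log2 difference of 3.46 (SE 0.65, limma adjusted p = 0.000192), or 4.80-fold higher with levels below the minimum, those of 7 of 9 TZL dogs, set to it. CXCL13 averaged 8.04 ± 1.39 in MZL and 5.89 ± 1.93 in TZL and did not pass (log2 difference 2.15, limma adjusted p = 0.0823), but passed without PTCL replicate 4 (0.0458), which enters through the shared spread.

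Within the B lineage no gene of the set passed. Between DLBCL and MZL 0% of all genes passed, with 977 of 7500 at an unadjusted p under 0.05. CXCR5 averaged a log2 level of 5.70 ± 1.47 in DLBCL (n = 10) and 7.57 ± 0.65 in MZL (n = 5), with a log2 difference of -1.87 (SE 0.78, 95% interval -3.46 to -0.29, limma adjusted p = 0.286). CCL19 and CCL21 were below the minimum in 9 of 10 DLBCL dogs and in all 5 MZL dogs, so no difference between these labels could be measured for them. CCR6 had a 95% interval of -1.12 to 1.49 for its log2 difference, and CXCL13 one of -2.80 to 0.92. Between BL and DLBCL 0.0267% of all genes passed, 426 at an unadjusted p under 0.05, and only 2 BL dogs stood behind this comparison.

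The difference of the grade steps, DLBCL minus MZL less PTCL minus TZL, tests whether grade goes with another change in B than in T. No gene of the set passed, where 1.96% of all genes did. CCL21 came closest with a log2 difference between the steps of 3.77 (SE 1.14, limma adjusted p = 0.0809), followed by CCL19 at 3.37 (SE 1.03, limma adjusted p = 0.0844). Both genes were below the minimum in nearly all dogs of either B label. Both passed without PTCL replicate 1 or without TZL replicate 5, the adjusted p reaching down to 0.0120 for CCL19 and 0.00260 for CCL21. CCL21 also passed with gender, breed and age as covariates (0.0459).

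Over the 6 labels together, 7 of the 9 genes passed limma's F test, where 56.8% of all genes passed. CCR7 (limma adjusted p = 0.158) and CXCR3 (0.349) did not pass, and CXCL12 no longer passed without the 6 arrays that stand apart (0.0758) or with low levels set to the minimum (0.127). When the labels were ordered by each gene's mean, 3 of 45 neighbouring pairs differed beyond their spread. These were PTCL and TZL for CCL19 and for CCL21, and BL and TZL for CCR6, with log2 levels of 5.93 ± 0.12 in BL and 3.06 ± 1.38 in TZL (log2 difference 2.87, limma adjusted p = 0.0204). The CCR6 call was lost with low levels set to the minimum (0.0621) and without either BL dog (0.139 and 0.146). For CCL19 the order of mean log2 levels was TZL at 8.79, PTCL at 5.48, LBT at 3.82, BL at 3.16, DLBCL at 2.99 and MZL at 2.94. For CXCL13 it was BL at 8.07, MZL at 8.04, DLBCL at 7.10, TZL at 5.89, PTCL at 5.59 and LBT at 3.49, with no neighbours that differed. For CCR4 it was LBT at 8.19, TZL at 7.19, PTCL at 6.92, DLBCL at 4.85, MZL at 4.10 and BL at 3.93, again with no neighbours that differed. For CXCR5 it was MZL at 7.57, DLBCL at 5.70, BL at 5.02, PTCL at 4.20, TZL at 3.37 and LBT at 2.23. Of the 15 possible pairs of labels, the number that passed was 8 for CCR6, 7 for CCL19, 5 each for CCL21, CCR4 and CXCR5, 3 each for CXCL13 and CXCL12, and 1 each for CCR7 and CXCR3, in both cases DLBCL and TZL. CCR7 then differed by -1.39 (limma adjusted p = 0.0474) and CXCR3 by -2.27 (0.0445) on the log2 scale, calls that were lost with no filter (0.0811 and 0.0776). The CCR7 call was also lost without any one of 20 of the 34 dogs (up to 0.112), and the CXCR3 call without any one of 12 dogs (up to 0.110) and without the 6 arrays that stand apart (0.121). Over all genes, the share that passed was 33.7% for DLBCL minus LBT, 20.9% for DLBCL minus PTCL, 46.9% for DLBCL minus TZL, 28.7% for MZL minus LBT and 15.5% for MZL minus PTCL. It was 13.8% for BL minus LBT, 6.29% for BL minus PTCL, 25.3% for BL minus TZL and 0.173% for BL minus MZL.

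Whether a ligand and its receptor move together within a subtype was examined for 3 pairs in the 10 DLBCL dogs and the 9 TZL dogs, 6 relations in all, none of which passed. In TZL, CXCL13 and CXCR5 had a Pearson r of 0.52 (two-sided exact permutation p = 0.0885, adjusted p = 0.531) and a Spearman rho of 0.60 (exact permutation p = 0.0968, adjusted p = 0.581). Without the 2 dogs farthest from the median of CXCL13 the r was 0.50, and without the arrays that stand apart it was 0.66 over 6 dogs. In DLBCL the same pair had an r of -0.33 (permutation p = 0.341) and a rho of -0.32 (permutation p = 0.365). CCL19 and CCR7 had an r of -0.25 in DLBCL (permutation p = 0.483) and 0.21 in TZL (exact permutation p = 0.611), and CCL21 and CCR7 an r of -0.20 in DLBCL (permutation p = 0.582) and -0.04 in TZL (exact permutation p = 0.951). The rho of CCL19 and CCR7 was -0.21 in DLBCL (permutation p = 0.555) and 0.17 in TZL (exact permutation p = 0.678), and that of CCL21 and CCR7 was -0.14 in DLBCL (permutation p = 0.707) and -0.23 in TZL (exact permutation p = 0.552). Without the 2 dogs farthest from the ligand's median, r in DLBCL was -0.34 for CCL19 and CCR7, 0.05 for CCL21 and CCR7 and -0.40 for CXCL13 and CXCR5, and in TZL it was 0.18 for CCL19 and -0.22 for CCL21 with CCR7. The lowest adjusted p of the 6 relations was 0.531. In DLBCL both T zone chemokines lay almost wholly below the minimum, so that their order there carries little.

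**Figure D5:**
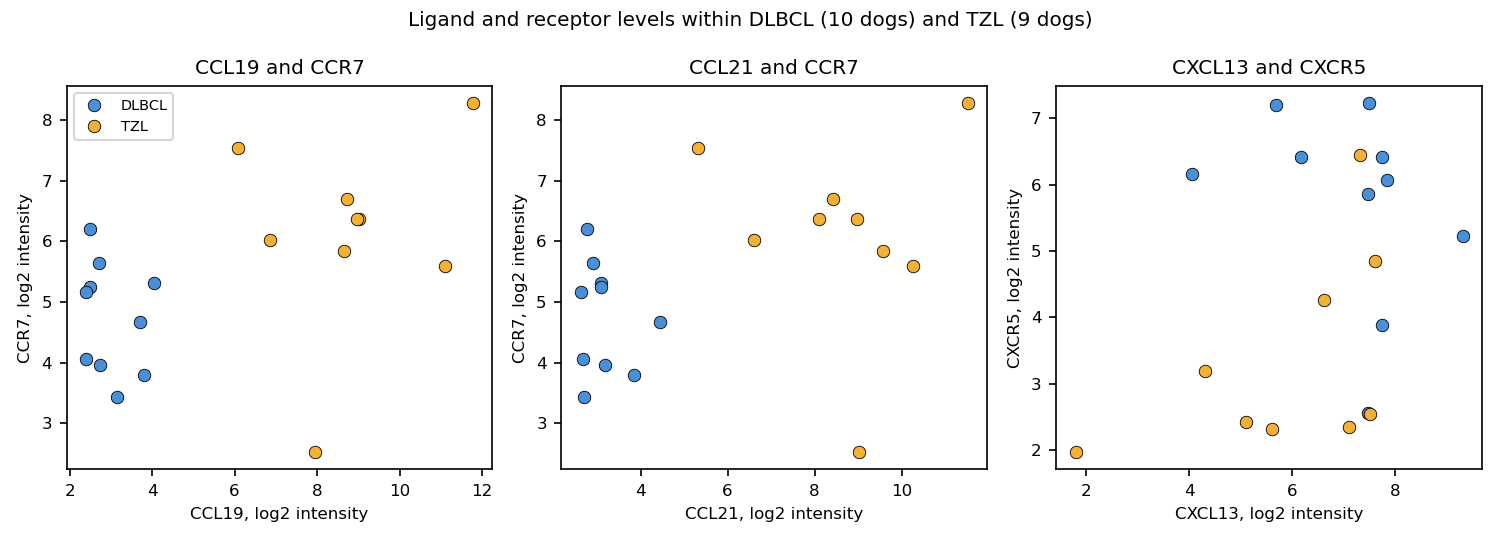
Ligand (horizontal axes) against receptor (vertical axes) as log2 intensity in the 10 DLBCL and 9 TZL dogs, with 1 point per dog. The DLBCL dogs form a narrow column for CCL19 and CCL21 with CCR7 between 3.43 and 6.20, and CXCR5 in TZL is above 4 in 3 dogs.

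The genes most like each member were sought by the Pearson correlation, over the 34 dogs, of deviations from the label means, a description in which all genes share arrays and normalization. CCL19 and CCL21 were like each other (r = 0.80) and both were like ADAMDEC1, a secreted protease of the ADAM family (r = 0.82 and 0.80). CCL21 was also like the adhesion molecule CADM1 (r = 0.82) and CCL19 like the matrix-associated protein CCN1 (r = 0.72). CXCL13 was most like ALDH2 (r = 0.82), an aldehyde dehydrogenase, the lysosomal protease gene LGMN (r = 0.80) and AIF1 (r = 0.79), which encodes a calcium-binding protein of macrophages. CXCL12 was most like the secreted protease gene HTRA1 (r = 0.78), LOC481722 and the complement gene C3 (r = 0.71 each). CXCR5 was most like PIK3AP1 (r = 0.83), an adaptor of B cell signalling, EBF1 (r = 0.81), a B cell transcription factor, and GH1 (r = 0.80), and CCR6 was most like CD180 (r = 0.78), a B cell surface receptor, SWAP70 (r = 0.72) and STARD7 (r = 0.69). CCR7 was most like the cytokine gene IL2 (r = 0.70), TBC1D10C and SLC52A2 (r = 0.61 each), CCR4 like GPR65 (r = 0.64), ELOVL5 and ZKSCAN1 (r = 0.62 each), and CXCR3 like the T cell coreceptor gene CD4 (r = 0.69), TMEM126A (r = 0.68) and RCAN2 (r = 0.66).

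The other genes of the pathway were described from 4 lists. Of 31 further chemokine ligands, 23 had a probe set and 9 passed the filter on low levels. In B against T, 0 of the 9 were higher and 3 were lower, with a median log2 difference of -0.74 beside 0.03 over all genes, of which 24.2% were higher and 22.3% lower. CCL17, a ligand of CCR4, was below the minimum in all B dogs and in 12 of 17 T dogs, with mean log2 levels of 2.73 ± 0.40 in B and 4.51 ± 2.40 in T (log2 difference -1.78, limma adjusted p = 0.0107), at least 1.43-fold lower. CCL17 passed the filter only through T dogs, so this p-value is not independent of the filter. CCL20, the ligand of CCR6, was below the minimum in 16 of 17 B dogs and 10 of 17 T dogs, and both means lay below it, at 2.58 ± 0.61 in B and 3.78 ± 1.86 in T. It passed (limma adjusted p = 0.0309), but not among high-grade dogs (0.986), with no filter (0.0522), with covariates (0.0581), with equal weight per subtype (0.0790), without the 6 arrays that stand apart (0.0791) or without any one of TZL replicates 1, 3 and 9 and PTCL replicate 4 (up to 0.0545). With 16 of 17 B dogs below the minimum, CCL20 passed the filter through T dogs, so its p-value is not independent of the filter. CCL2, which draws monocytes, also passed as lower (log2 difference -1.19, limma adjusted p = 0.0370), but not with low levels set to the minimum (0.180) and not under several other settings (up to 0.258). CCL17 averaged a log2 level of 7.13 ± 2.64 in PTCL and 3.49 ± 1.26 in TZL (log2 difference 3.63, limma adjusted p = 0.00307), or 7.85-fold higher with low levels set to the minimum, and did not pass without the 6 arrays that stand apart (0.0616). CCL17 reached the minimum in only 5 dogs, PTCL dogs among them, so this p-value too is not independent of the filter. CCL20 was below the minimum in all 4 LBT dogs and in 4 of 9 TZL dogs, at least 1.30-fold lower in LBT (limma adjusted p = 0.00852), and did not pass with low levels set to the minimum (0.120). It would not have passed the filter without the TZL dogs, so this p-value is not independent of the filter. CXCL10, a ligand of CXCR3, averaged 4.20 ± 1.61 in LBT and 7.07 ± 1.41 in TZL and did not pass (log2 difference -2.87, limma adjusted p = 0.0565), but passed in these 13 dogs alone (0.0148) and without any one of 7 dogs (down to 0.0364).

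Of 18 further chemokine receptors, 10 had a probe set and 6 passed the filter. In B against T, 2 of the 6 were higher and 3 lower, with a median log2 difference of -0.69 beside 0.03 over all genes, of which 24.2% were higher and 22.3% lower. CCR8, known from regulatory T cells, was below the minimum in all B dogs, with mean log2 levels of 2.03 ± 0.29 in B and 5.49 ± 3.00 in T (log2 difference -3.46, limma adjusted p = 0.000145), at least 2.81-fold lower. CCR8 passed the filter only through T dogs, so this p-value is not independent of the filter. CCR9, the gut-homing receptor that binds CCL25, was at the minimum or above in 3 of 4 LBT and 3 of 4 PTCL dogs and in no TZL or B dog. Its mean log2 levels were 6.77 ± 2.82 in LBT, 6.11 ± 3.11 in PTCL and 1.46 ± 0.14 in TZL, so that it was at least 6.82-fold higher in LBT (limma adjusted p = 8.86e-06) and at least 4.30-fold higher in PTCL (limma adjusted p = 0.000198) than in TZL. CCR9 passed the filter only through LBT and PTCL dogs, so these p-values are not independent of the filter. CCRL2 also passed as higher in LBT (log2 difference 1.53, limma adjusted p = 0.00831) and in PTCL (2.23, limma adjusted p = 0.000720) than in TZL, in LBT not with covariates (0.0611). CCR1 and CCR2, receptors of monocytes, passed as higher in B (limma adjusted p = 0.000964 and 0.00487), but 12 and 13 of 17 B dogs and all 17 T dogs lay below the minimum, and neither passed with low levels set to it (0.0822 and 0.139). Both passed the filter only through B dogs, so their p-values are not independent of the filter.

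Of 35 genes of chemokine signal transduction, 33 had a probe set and 30 passed the filter. In B against T, 5 were higher and 13 lower, with a median log2 difference of -0.37 beside 0.03 over all genes, of which 24.2% were higher and 22.3% lower. The G protein subunit gene GNG2 averaged a log2 level of 6.87 ± 1.02 in B and 9.45 ± 0.60 in T (log2 difference -2.58, limma adjusted p = 4.78e-09), the receptor kinase gene GRK5 differed by -2.35 (4.13e-06) and the arrestin gene ARRB2 by -1.71 (1.83e-06) on the log2 scale. GNAI3, an inhibitory G protein subunit gene, differed by -0.45 (limma adjusted p = 4.12e-05). In LBT against TZL 2 were higher and 6 lower, beside 17.8% and 12.4% of all genes. Among the lower were RGS19, a regulator of G protein signalling, with mean log2 levels of 3.14 ± 1.16 in LBT and 6.61 ± 0.93 in TZL (log2 difference -3.48, limma adjusted p = 1.47e-05), and the receptor kinase gene GRK2, with 6.26 ± 0.77 in LBT and 8.32 ± 0.26 in TZL (log2 difference -2.06, limma adjusted p = 6.83e-05). In PTCL against TZL 1 was higher and 5 lower, beside 7.6% and 6.07% of all genes, GRK2 again among the lower (log2 difference -1.66, limma adjusted p = 0.00205).

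Of 17 genes of the lymphotoxin and non-canonical NF-kappaB pathway, through which stroma is known to be set to make lymphoid chemokines in mouse, all 17 had a probe set and 13 passed the filter. In B against T, 2 were higher and 3 lower, with a median log2 difference of -0.12 beside 0.03 over all genes, of which 46.5% passed, 24.2% as higher and 22.3% as lower. TNFSF11, which encodes RANKL and reached the minimum in no B dog, was at least 1.98-fold lower (limma adjusted p = 0.000282). It passed the filter only through T dogs, so this p-value is not independent of the filter. The other lower ones were TNF (log2 difference -1.54, limma adjusted p = 0.0208) and its receptor gene TNFRSF1A (-1.63, 3.37e-05). TNF did not pass among high-grade dogs (0.274) or with covariates (0.0540), nor TNFRSF1A with low levels set to the minimum (0.0806). TNFRSF1A also reached the minimum in no B dog and passed the filter only through T dogs, so its p-value is not independent of the filter. Among the higher ones was TRAF3 (log2 difference 1.02, limma adjusted p = 2.87e-05), which restrains the pathway. TRAF3 was below the minimum in every T dog and reached it in 8 B dogs. It passed the filter only through B dogs, so its p-value is not independent of the filter. Its mean log2 level in B was 4.18, so that it was at least 1.13-fold higher there. TNFSF11 averaged a log2 level of 7.26 ± 1.85 in LBT, 6.64 ± 1.70 in PTCL and 3.24 ± 1.47 in TZL, where 8 of 9 dogs lay below the minimum. With low levels set to the minimum it was 7.76-fold higher in LBT (limma adjusted p = 3.65e-05 on the levels as measured) and 5.05-fold higher in PTCL (0.000771) than in TZL. With nearly all TZL dogs below the minimum, TNFSF11 passed the filter through LBT and PTCL dogs, and these p-values are not independent of the filter. The mean log2 level of TNFSF11 was lower still in the B labels, at 2.54 in BL, 2.23 in DLBCL and 2.38 in MZL. Between LBT and TZL 1 gene of this list was higher and 3 lower, beside 17.8% and 12.4% of all genes. BIRC3 was among the lower (log2 difference -1.80, limma adjusted p = 0.00674), but not with the mean of its probe sets (0.0847) or without LBT replicate 1 or 2 (up to 0.0605).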

How the data were processed

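Intensities of 43035 probe sets on 36 arrays were deposited by the authors on a linear scale, summarised with GCRMA per the submitters' processing notes (version not given in the sources used here). They were floored at 1 and converted to log2. Of several probe sets of a gene, the brightest on average was kept, the 2 arrays of 1 case were averaged, and 7500 genes with log2 of at least 4 in at least 4 of 34 dogs were tested. R 4.3.3 with limma 3.58.1 (lmFit, eBayes, two-sided, Benjamini-Hochberg over all genes, called at an adjusted p under 0.05) was used, with 2 means for B against T and 6 subtype means for the other contrasts, and permutation tests (100000 resamples, exact for TZL) used scipy 1.17.1. Replicates were numbered in accession order. The members and lists were chosen with earlier results of these data known. Named genes were the members, up to 4 genes per list with the smallest p in B against T, up to 2 per list in other comparisons, the 3 genes most like each member, and lineage markers. Steps were tested on simulated data. Where a whole group lay below the minimum, folds are bounds against it. A gene measurable on 1 side of a comparison alone can owe its place in the tests to that side. Its p-value is then not independent of the filter.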

Additional observations from a re-analysis of the deposited data

Results flagged for a closer look

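In the 45 groups of 4 to 10 dogs examined, 1 dog lay far from the rest of its group in 3 cases, where chance alone flags about 1 in 20 groups. CCR7 in TZL replicate 2 had a log2 level of 2.53, the lowest of 9 dogs, the next being 5.60, and this dog is among the 6 arrays that stand apart. CCR7 in PTCL replicate 1 had a log2 level of 9.31, the highest of 4 dogs, the next being 4.81. CXCR5 in LBT replicate 4 had a log2 level of 3.15, the highest of 4 dogs, the next being 2.01, all 4 below the minimum.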

How the results depend on the processing

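Of 33 single-gene differences or F tests with an unadjusted p under 0.05 in the members, the further label pairs apart, 19 kept their direction and their side of the threshold under each of up to 18 other settings and without each of the 34 dogs, and 0 reversed. Those that changed with a setting concerned CXCL12, CCR7, CXCR3, CCL21 and CCR4 and, for PTCL minus TZL, CCL19, those of CXCL13 changed only without a single dog, and the causes were not tested. The same alternatives were run, chosen after seeing the data, on 40 further label pairs of members and 63 differences of list genes, of which 23 and 32 kept their call throughout, 7 and 5 changed it without the 6 arrays that stand apart, and 0 reversed. For PTCL minus TZL the number of members called was 2 in the main setting, 0 with array weights, 0 in a fit of the compared groups only and 1 without the 6 arrays that stand apart, the limma adjusted p over all settings running from 0.00233 to 0.0532 for CCL19 and from 0.00284 to 0.108 for CCL21. For the grade steps it was 0, and 1 with gender, breed and age as covariates. Without each dog in turn, the number of members called ran from 7 to 9 for B minus T, 7 to 8 for the F test, 2 to 4 for LBT minus TZL, 5 to 7 for MZL minus TZL, 0 to 2 for the grade steps, 2 to 2 for PTCL minus TZL and 0 to 0 for DLBCL minus MZL, LBT minus PTCL and BL minus DLBCL, and that of neighbouring labels called ran from 2 to 4. The count of correlations called was 0 to 0 without each dog. CXCL12 was lost for LBT minus TZL without any one of LBT replicates 1, 2 and 4, DLBCL replicates 6 and 11 and TZL replicates 1, 2, 4 and 6 (limma adjusted p up to 0.154).

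Counts over all genes moved more. DLBCL minus MZL had 0 genes called, against 378 with array weights, 39 with low levels set to 4, and 0 to 68 without each dog. PTCL minus TZL had 1025, against 556 without the 6 arrays and 587 without PTCL replicate 2. LBT minus PTCL had 51, against 0 to 180, BL minus DLBCL 2, against 0 to 12, and the grade steps 147, against 42 to 281. CXCL12 has no value under the stricter filter. No paired analysis was possible because each dog carried a single disease state label.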

Other observations

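The NBNT dog, which entered no comparison, had log2 levels of 7.31 for CCL19, 5.48 for CCL21, 5.43 for CXCL13, 3.04 for CXCL12, 6.03 for CCR7, 8.58 for CCR4, 6.38 for CXCR3, 5.02 for CXCR5 and 3.42 for CCR6. Its CCL19 and CCL21 levels lay within the TZL range and above every B dog, its CCR4 level was above every B dog, and its CCR6 level was below every B dog. Its log2 levels of lineage markers were 10.13 for MS4A1, 11.38 for CD3E and 10.34 for TRAT1, a T cell adaptor gene, so that markers of both lineages were present.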
